A study of Mus musculus with 4 samples.

Results

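The mast cell genes Cma1, Mcpt4, Cpa3, Tpsb2, Tpsab1, Ms4a2, Fcer1a and Hdc were followed across 4 Affymetrix whole-genome expression arrays of mouse mammary tumors. All probe sets annotated with exactly 1 of these symbols were taken, which gave 11 probe sets for the 8 genes, out of 45037 probe sets and 18193 named genes. The genes were chosen by cell type and by the higher Cma1 intensity of the null pools, which was already known. For all 8 genes that contrast is therefore given as values, with no test, and nothing is supported with it. Of the arrays, 2 held PyV-mT St6gal1-/- tumors (called null) and 2 held PyV-mT wild-type tumors of littermates. All animals were female C57BL/6 mice of 110 days transgenic for the middle T oncogene of polyoma virus (PyV-mT), driven by a promoter not given in the labels, and tumors were taken 14 days after onset. Each array was 1 pool of 3 tumors from 3 animals, so the spread between single tumors is not visible. The series compares 1 null with 1 wild-type pool in each of 2 sets.

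Mast cells are long-lived tissue leukocytes packed with granules of histamine, heparin and proteases, and they sit in connective tissue, along vessels and in the stroma of the mammary gland. They carry the high-affinity IgE receptor, whose crosslinking empties the granules. In mice, connective tissue mast cells are known for the chymases Cma1 (mMCP-5) and Mcpt4, the carboxypeptidase Cpa3 and the tryptase Tpsb2, and mucosal mast cells for Mcpt1 and Mcpt2.

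The promoters of Cma1, Cpa3 and Mcpt4 are shown because Cma1 and Cpa3 were the 2 genes of the 8 that read above the unspecific level described next, while Mcpt4, which lies in the same chymase cluster as Cma1, did not. The sequences are RefSeq's (GRCm38.p6), from 250 bases before to 50 bases after the annotated start, all on the minus strand. Capitals mark GATAA on either strand (TTATC on the printed one), the core of the motif of GATA factors, which include the mast cell regulators GATA1 and GATA2.
Cma1 (chr14:55944626-55944925): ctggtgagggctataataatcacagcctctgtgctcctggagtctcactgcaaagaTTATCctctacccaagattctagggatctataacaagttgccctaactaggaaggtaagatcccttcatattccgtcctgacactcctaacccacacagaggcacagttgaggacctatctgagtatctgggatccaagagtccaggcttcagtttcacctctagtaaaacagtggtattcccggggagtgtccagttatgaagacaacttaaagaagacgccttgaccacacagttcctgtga
Cpa3 (chr3:20242132-20242431): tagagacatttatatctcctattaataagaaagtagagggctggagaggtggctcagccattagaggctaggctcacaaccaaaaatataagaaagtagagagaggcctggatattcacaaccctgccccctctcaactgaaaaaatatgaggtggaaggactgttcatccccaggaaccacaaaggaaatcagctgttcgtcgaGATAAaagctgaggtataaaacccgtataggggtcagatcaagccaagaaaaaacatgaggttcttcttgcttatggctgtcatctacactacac
Mcpt4 (chr14:56062261-56062560): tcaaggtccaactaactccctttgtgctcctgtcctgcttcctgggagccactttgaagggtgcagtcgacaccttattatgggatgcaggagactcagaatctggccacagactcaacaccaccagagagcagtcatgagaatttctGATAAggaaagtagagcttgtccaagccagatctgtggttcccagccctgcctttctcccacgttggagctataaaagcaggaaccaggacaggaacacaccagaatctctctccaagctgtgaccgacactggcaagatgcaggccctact
Each of these promoters held 1 match, whose first base lies 194 bases before the start of Cma1, 45 before that of Cpa3 and 102 before that of Mcpt4. Of the 8 genes, 6 were in the promoter table, with no entry for Tpsb2 and Tpsab1, and 5 of the 6 had a match. Fcer1a had 1 and Ms4a2 had 3 matches, and Hdc had no such letters in this window. Among all 32851 promoters of this length 25.4% held a match. A match is a description of the letters and was not tested for binding.

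All 4 deposited arrays had the same trimmed mean of 2500.01, with a median of 588 and 591 in null pools, against 619 and 593 in wild-type pools. Because the animals were female, the 13 probe sets of Y-linked genes gave an unspecific level. Their 52 readings had a median of 89.0 and a maximum of 564.5, and a reading at or below that maximum is not told from unspecific signal here. Gapdh probe sets at the 3' and 5' ends, whose ratio goes up with RNA degradation, stood at 0.873 (null) and 0.869 (wild type) to 1 in set 1, and at 2.13 (null) and 1.57 (wild type) to 1 in set 2. The brighter St6gal1 probe set read 2337 and 3642 in the null pools, against 2330 and 2796 in the wild-type pools, with no lower signal in the pools labelled null. Which exons the allele has lost is not stated in the labels, so this probe set may lie outside them and does not check the genotypes. Directions rest on the labels.

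Only Cma1 read above the unspecific level on all 4 arrays, and Cpa3 did so on both null arrays and neither wild-type array. The other 9 probe sets, of 6 genes, read between 26.6 and 546.6 on the null arrays and between 8.89 and 497.5 on the wild-type arrays, all within the unspecific level. The defining genes of the IgE receptor, of histamine synthesis and of the tryptases were thus not told from unspecific signal in either genotype, and no fold is given for them. In pooled tumor RNA, fewer mast cells and less RNA per mast cell cannot be told apart.

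**Figure D1:**
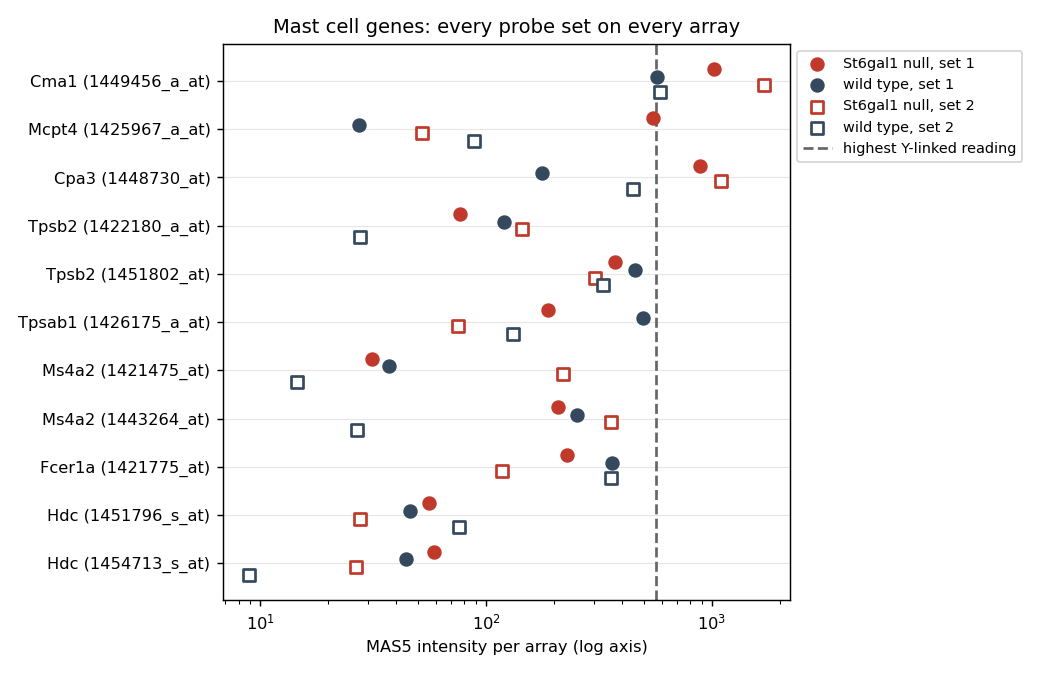
MAS5 intensity (log axis) of each probe set of the 8 mast cell genes, with 1 point per array: red for St6gal1 null, dark for wild type, filled circles for set 1 and open squares for set 2. The dashed line is the highest Y-linked reading, 564.5. Cma1 lies right of it on all 4 arrays, Cpa3 only on the null arrays, and the other 9 probe sets on none.

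Cma1 encodes the mast cell chymase mMCP-5, a granule serine protease. Its probe set, 1449456_a_at, read 1018 and 1704 in the null pools of sets 1 and 2, against 573.6 and 588.2 in the wild-type pools. Both null pools were above both wild-type pools. The wild-type pools lay just over the unspecific level and close to each other, while the null pools differed between the sets. The level averaged 10.41 on the log2(intensity + 44) scale in null pools and 9.29 in wild-type pools. The log2 ratio was 0.78 in set 1 and 1.47 in set 2, with a mean of 1.13 ± 0.29 (limma standard error, n = 2 pools per genotype), or 2.18-fold. With null pool 2 left out, the ratio was 0.77.

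Mcpt4 encodes mMCP-4, a chymase held to be the closest functional counterpart of human chymase. It read 546.6 and 52.2 in the null pools of sets 1 and 2, against 27.2 and 88.7 in the wild-type pools. The null pool of set 1 was the highest, just under the unspecific level, and the groups overlapped. The chymase genes form a cluster in the RefSeq table that runs from Cma1 to Ctsg and holds 8 protein-coding genes, of which 6 had a probe set. Besides Cma1 and Mcpt4, these were Mcpt1, Mcpt2, Mcpt8 and Ctsg. Mcpt1 and Mcpt2, the mucosal mast cell proteases, read 46.5 and 27.0 (Mcpt1) and 40.2 and 72.8 (Mcpt2) in the null pools, against 34.2 and 24.2 (Mcpt1) and 460.0 and 91.5 (Mcpt2) in the wild-type pools. Mcpt8, a basophil protease, and Ctsg, the cathepsin G of neutrophils and mast cells, also stayed within the unspecific level. Cma1 was thus the 1 gene of the 6 that read above it.

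Cpa3 encodes the mast cell carboxypeptidase, which is stored in the same granules and trims peptides from their carboxyl end. Its probe set, 1448730_at, read 889.4 and 1093 in the null pools of sets 1 and 2, against 177.1 and 446.9 in the wild-type pools. Both null pools were above both wild-type pools, and neither wild-type pool was told from unspecific signal. Against the unspecific level, Cpa3 was at least 1.69-fold higher in the null pools. The bound sets the mean log2 value of both null pools against that level and leaves out their spread. The mean log2 value of Cpa3 over the 4 arrays lay below the filter, so the main limma fit did not include it.

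The tryptases are granule proteases that are stored as heparin-bound tetramers. Tpsb2 encodes mMCP-6, the main tryptase of C57BL/6 mice. Its brighter probe set, 1451802_at, read 372.8 and 304.4 in the null pools of sets 1 and 2, against 456.7 and 330.0 in the wild-type pools. Its other probe set, 1422180_a_at, read 76.3 and 143.9 in the null pools, against 120.2 and 27.7 in the wild-type pools. The groups overlapped on both. Tpsab1, for mMCP-7, is listed as a transcribed pseudogene in the RefSeq table of C57BL/6J, a strain known to lack this tryptase. It read 188.1 and 75.4 in the null pools, against 497.5 and 131.8 in the wild-type pools, and the groups overlapped. The 2 tryptases are close paralogs, so their probe sets may pick up each other's transcript.

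Fcer1a and Ms4a2 encode the IgE-binding alpha and the signal-amplifying beta chain of the high-affinity IgE receptor. Fcer1a read 227.1 and 117.0 in the null pools of sets 1 and 2, against 361.4 and 357.7 in the wild-type pools. Both null pools were lower, the opposite order to Cma1 and Cpa3, but all 4 readings were within the unspecific level and have no order beyond it. The probe sets of Ms4a2 read 208.5 and 356.9 (1443264_at) and 31.2 and 218.6 (1421475_at) in the null pools, against 253.3 and 26.8 and against 37.1 and 14.5 in the wild-type pools. On both, the null pool was the higher one in set 2 and not in set 1.

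Hdc encodes histidine decarboxylase, which makes histamine. Its probe sets read 56.1 and 27.6 (1451796_s_at) and 58.5 and 26.6 (1454713_s_at) in the null pools of sets 1 and 2, against 45.9 and 76.1 and against 44.2 and 8.89 in the wild-type pools. Their means over the 4 arrays, 51.4 and 34.6, were the 2 lowest of the 11 probe sets, and no order can be read from them.

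Counted over probe sets, both null arrays lay above both wild-type arrays for 2 of the 11 (Cma1 and Cpa3) and below them for 1 (Fcer1a). Among all 22519 tested probe sets these shares were 15.1% and 16.9%. Of the 11, only Cma1 is among those tested, since the others lay below the filter, so the 2 sets of probe sets are unlike in brightness. In limma's fit of genotype and set, 7.36% of the tested probe sets were called at an adjusted p of 0.05, 4.09% higher and 3.27% lower in null. All of these calls, those named in the following paragraphs included, rest on the block and on limma's intensity trend: without either, 0 of 22519 were called (1261 without the block and 3512 without the trend at an unadjusted p under 0.05). The count and the share are given side by side and nothing is read from them, since this contrast chose the genes. The brightest probe sets of the 8 genes summed to 3507 and 3730 in the null pools, against 2393 and 2046 in the wild-type pools. Without Cma1 and Cpa3 the other 6 summed to 1599 and 933 in the null pools, against 1642 and 1011 in the wild-type pools, so the higher sum in the null pools came from these 2 genes.

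The contrast between sets, which did not choose the genes, could be tested for Cma1. The set 2 pools read 1704 (null) and 588.2 (wild type), against 1018 (null) and 573.6 (wild type) in set 1. The log2 difference was 0.38 ± 0.29 (limma standard error, n = 2 pools per set), with a limma adjusted p of 0.386. Between sets, 23.5% of all tested probe sets passed, and of the 1 mast cell probe set tested 0 did (0 at an unadjusted p under 0.05). Without null pool 2 the difference was -0.358 and without wild-type pool 1 it was -0.015, so its direction rests on single pools. Cpa3 had a log2 difference of 0.72 under the 3 other filters that kept it, with limma adjusted p-values from 0.22 to 0.424. The value of 0.22 came from a filter on mean intensity chosen after seeing the data. The filters that drop dim probe sets kept Cpa3 only through its null pools. Its wild-type readings in sets 1 and 2, 177.1 and 446.9, were within the unspecific level, against 889.4 and 1093 in the null pools. No set difference of Cpa3 is read from this.

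Further mast cell genes were followed in 5 lists. Of 56 genes listed 47 had a probe set, 30 read above the unspecific level on at least 1 array and 22 could be tested, 1 probe set per gene. Of the 22, limma called 3 higher in the null pools, 0 lower and 19 in neither direction. For 3 of the 22 (Aoc1, Ltc4s and Lat2) the mean of one genotype lay under the filter, so that they were tested through the other, and Aoc1 was the 1 called among them. Of the other 19, 2 were called higher (10.5%) and 0 lower, against 3.96% higher among the 21458 probe sets with both genotypes over the filter. Over all 22, with those 3 included, the median log2 ratio was 0.10, against -0.03 over all tested probe sets. Without the set as a block limma called 0 of the 22 (2 at an unadjusted p under 0.05). Dropping limma's intensity trend also left 0 (4 at an unadjusted p under 0.05). Leaving out any 1 array, in a fit without the set, left 0 or 1 called.

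The 3 genes called higher were Aoc1, Alox5ap and Pla2g4a. Aoc1 encodes diamine oxidase, which breaks down histamine outside cells. It read 1728 and 1560 in the null pools of sets 1 and 2, against 97.3 and 379.7 in the wild-type pools, and was at least 2.77-fold higher. Both wild-type readings were within the unspecific level. Aoc1 passed the filter only through its null pools, so its call is no independent evidence and its p-value is not given. It was the 1 gene of its list that was tested. Hnmt, which methylates histamine inside cells, and the receptor genes Hrh1 to Hrh4 were below the filter.

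Alox5ap encodes the protein that presents arachidonic acid to 5-lipoxygenase for leukotriene synthesis, and Pla2g4a the phospholipase that releases arachidonic acid. Alox5ap read 4381 and 4597 in the null pools, against 2941 and 2975 in the wild-type pools, a rise of 1.51-fold (log2 0.59 ± 0.13, limma adjusted p = 0.0112). Pla2g4a read 12249 and 12446 in the null pools, against 9349 and 10041 in the wild-type pools, a rise of 1.27-fold (log2 0.35 ± 0.09, limma adjusted p = 0.0289). Macrophages and other leukocytes, and for Pla2g4a many epithelial cells, also make these enzymes. Of the 5 mediator genes tested, 2 rose, 0 fell and 3 did not pass.

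Of 7 genes of IgE receptor and Kit signalling, 0 passed (4 at an unadjusted p under 0.05). Kit, the receptor for stem cell factor on which mast cells depend, read 25010 and 39528 in the null pools, against 30247 and 43961 in the wild-type pools (log2 -0.21 ± 0.08, limma adjusted p = 0.153). Its other, dimmer probe set had a log2 ratio of -0.21 ± 0.13. Luminal mammary epithelium also makes Kit. Plcg2, a phospholipase downstream of the receptor, had a log2 ratio of -0.20 ± 0.09. Kit and Plcg2 were the brightest of the 7 and the only ones with a negative ratio. By their brightest probe sets, Syk, Lat2, Gab2 and Lcp2 had log2 ratios of 0.46 ± 0.23, 0.47 ± 0.34, 0.35 ± 0.13 and 0.10 ± 0.22. The median over the 7 was 0.33. Fcer1g, the gamma chain of the IgE receptor, was chosen after its values were seen, since it completes the receptor. It read 6552 and 10102 in the null pools, against 5717 and 7326 in the wild-type pools (log2 0.33 ± 0.11, limma adjusted p = 0.078), and macrophages use the same chain in other Fc receptors. The receptor's mast cell chains were thus within the unspecific level while the chain shared with macrophages was not.

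Of 8 growth and transcription factors of mast cells 0 passed (2 at an unadjusted p under 0.05), with a median log2 ratio of 0.00. Stat5a, a signal transducer downstream of Kit and cytokine receptors, had a log2 ratio of -0.35 ± 0.10 (limma adjusted p = 0.0546), and with pseudocounts of 16 and 200 it was called lower (limma adjusted p = 0.0494 and 0.0461). Kitl, which encodes stem cell factor, read 12552 and 14413 in the null pools, against 13737 and 17733 in the wild-type pools (log2 -0.21 ± 0.09, limma adjusted p = 0.179). Its other probe sets had log2 ratios of -0.80 ± 0.28 (limma adjusted p = 0.0998), -0.45 ± 0.29 and -0.16 ± 0.13, and none passed. Il33, an alarmin that activates mast cells, had a log2 ratio of -0.11 ± 0.10. Among other granule proteases, Gzmb, granzyme B of cytotoxic lymphocytes, was the 1 gene tested and did not pass (log2 0.16 ± 0.34, 0 of 1 at an unadjusted p under 0.05). Between sets, 7 of the 22 genes passed (31.8%, against 23.5% of all tested probe sets), Kit among them by its brightest probe set, with a log2 difference of 0.60 ± 0.08 (limma adjusted p = 1.55e-04). The dimmer Kit probe set read 5897 (null) and 5739 (wild type) in set 2, against 4933 (null) and 6801 (wild type) in set 1, a log2 difference of 0.01 ± 0.13 (limma adjusted p = 0.98), so the probe sets of Kit disagree. The Gapdh 3'/5' ratio also differed between sets (2.13 and 1.57 in set 2, against 0.873 and 0.869 in set 1), and its part in the set differences was not tested.

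**Figure D2:**
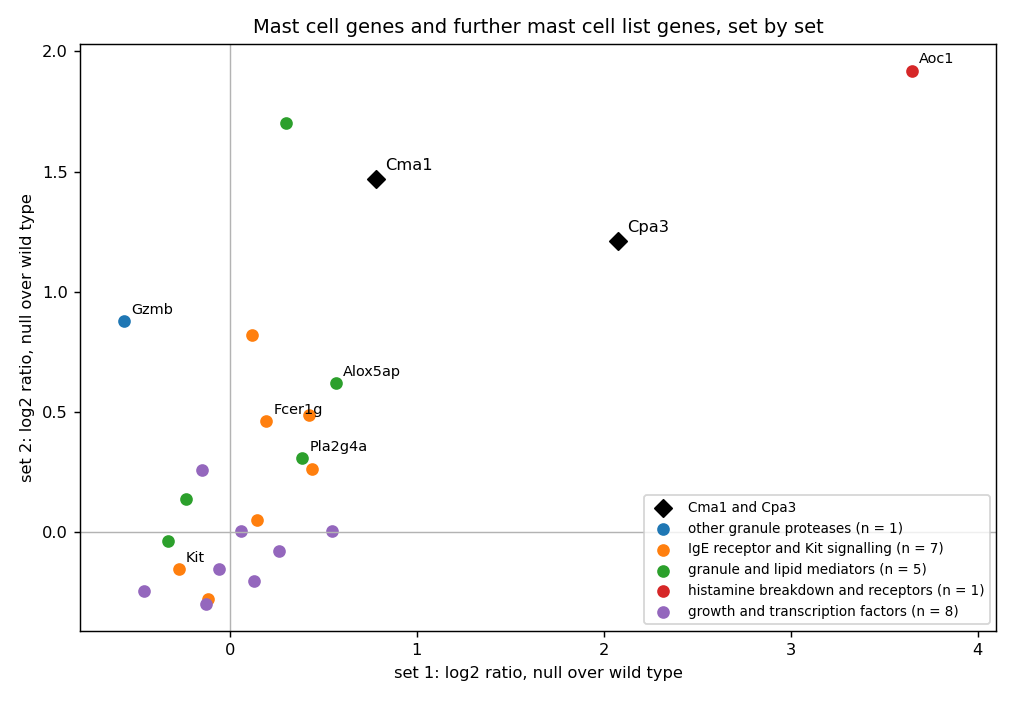
Log2 ratio of null over wild type on the log2(intensity + 44) scale in set 1 (x axis) and set 2 (y axis), with 1 point per gene: black diamonds for Cma1 and Cpa3, coloured circles for the 22 tested genes of the 5 further mast cell lists. Cma1 (0.78 and 1.47) and Cpa3 (2.08 and 1.21) lie to the upper right with Aoc1, where the wild-type readings of Cpa3 and Aoc1 are within the unspecific level. Kit, by its brightest probe set, lies below 0 in both sets. The dimmer Kit probe set, not drawn, had log2 ratios of -0.46 in set 1 and 0.04 in set 2.

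Proteins that mast cell proteases are known to cleave or activate in tissue were listed as well. Of 6 tested, 2 rose, 0 fell and 4 did not pass. For this list and those that follow, the shares over all tested probe sets were 4.09% higher and 3.27% lower. Mmp2 did not pass by its brightest probe set (log2 0.31 ± 0.10, limma adjusted p = 0.0658). Its other probe set was called higher (log2 0.32 ± 0.09, limma adjusted p = 0.045). Fn1, fibronectin, read 24625 and 30272 in the null pools, against 7564 and 9965 in the wild-type pools, a rise of 3.13-fold (limma adjusted p = 2.83e-08). Mmp3, stromelysin, which mast cell proteases can activate, rose 3.36-fold (limma adjusted p = 7.42e-07). Both are made by fibroblasts, and Fn1 is also 1 of the fibroblast markers that follow.

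Many markers of fibroblasts, adipocytes and endothelium were also higher in the null pools, and their part in the difference of Cma1 and Cpa3 was not tested. All 11 fibroblast markers tested rose by their brightest probe sets, with a median log2 ratio of 1.26, and 10 did with no filter on low values. Their summed intensity was 363771 and 416421 in the null pools, against 168215 and 174675 in the wild-type pools. Other tested probe sets of Col1a2, Col3a1 and Col1a1 rose 2.90-fold, 3.42-fold and 1.39-fold, the last against 3.57-fold on the brightest. That of Fbln1 did not pass (1.27-fold, limma adjusted p = 0.625). Of 5 adipocyte markers 4 rose and 0 fell, with sums of 61475 and 54671 in the null pools, against 25100 and 22536 in the wild-type pools. Of 7 endothelial markers 3 rose, 0 fell and 4 did not pass, with sums of 24252 and 25217 in the null pools, against 14244 and 14886 in the wild-type pools. Rgs5 alone made up 11706 and 13621 of these sums in the null pools, and 6588 and 7081 in the wild-type pools. Cdh5 and Kdr were among those that did not pass, with log2 ratios of -0.10 ± 0.27 and 0.27 ± 0.25. Lum, lumican of the collagen matrix, rose 4.31-fold and Adipoq, adiponectin, 3.08-fold. Rgs5, of pericytes, rose 1.84-fold on its brightest probe set, while its 3 other tested probe sets had folds of 1.32, 1.48 and 1.49 and did not pass (limma adjusted p = 0.40, 0.0686 and 0.203). Without the set as a block limma called 0 genes of each of these lists (10 of 11, 4 of 5 and 4 of 7 at an unadjusted p under 0.05).

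Of 10 macrophage markers 3 rose, 1 fell and 6 did not pass, with sums of 209162 and 236171 in the null pools, against 203974 and 234082 in the wild-type pools. Mrc1, the mannose receptor, and Cd163, the haemoglobin scavenger receptor, rose 2.04-fold and 1.82-fold, and Cd14, the endotoxin co-receptor, fell by 0.44 on the log2 scale. Of 10 neutrophil markers on the array, only 3 read above the unspecific level on any array. Of 3 tested 0 rose and 1, S100a8, a calprotectin subunit, fell by 1.86 on the log2 scale. S100a9 read 78.5 and 312 in the null pools, against 190.5 and 200 in the wild-type pools, all within the unspecific level. The fall of S100a8 thus stands without the rest of its list. The list summed to 84982 and 109572 in the null pools, against 101248 and 116543 in the wild-type pools. Ltf, lactoferrin of neutrophil granules and of mammary epithelium, read 72624 and 98040 in the null pools, against 63376 and 81354 in the wild-type pools (log2 0.23 ± 0.09, limma adjusted p = 0.14), and was called higher under quantile normalization (limma adjusted p = 0.0415). It made up most of the neutrophil sums. None of the 7 eosinophil markers read above the unspecific level, and of the 4 basophil markers on the array 1 did, and no gene of either list passed the filter. Their sums were 628 and 1386 (eosinophil) and 1160 and 1242 (basophil) in the null pools, against 935 and 1263 and against 875 and 968 in the wild-type pools. Skin, a tissue rich in mast cells, was checked too: of 7 skin markers 2 read above the unspecific level, Krt10 and Lor, and 0 passed (0 at an unadjusted p under 0.05), with log2 ratios of -0.16 and -0.13.

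**Figure D3:**
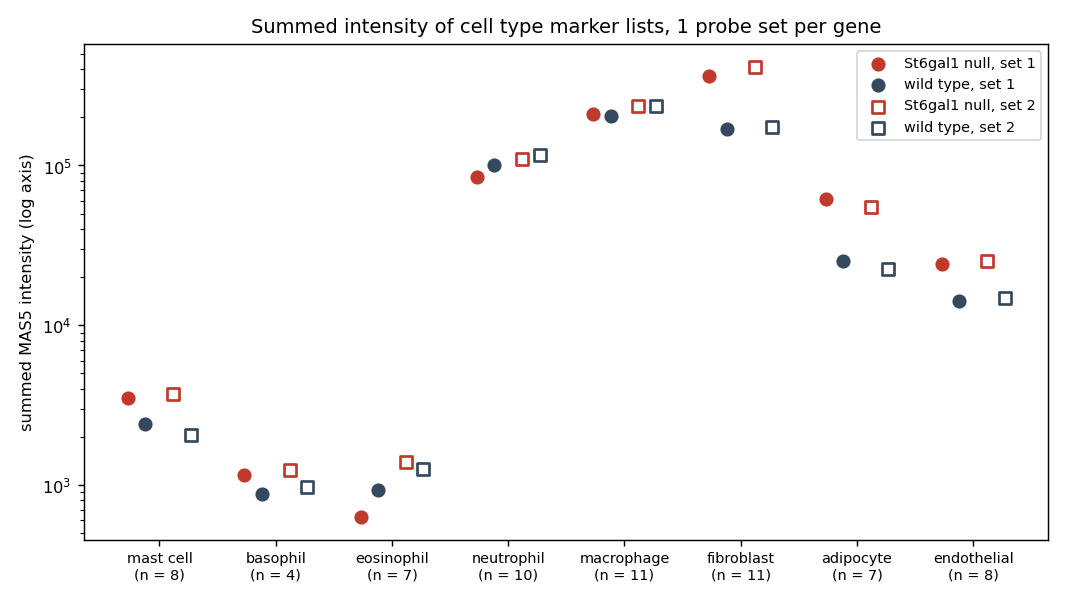
Summed MAS5 intensity (log axis) of marker lists, with the brightest probe set of each gene and 1 point per array: red for St6gal1 null, dark for wild type, filled circles for set 1 and open squares for set 2. The mast cell, fibroblast, adipocyte and endothelial sums are higher in the null pool in both sets, as are the basophil and, by less, the macrophage sums. Of the 8 mast cell genes summed (3507 and 3730 in null, 2393 and 2046 in wild type), 6 are within the unspecific level.

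The genes whose 4 readings were most like those of Cma1 were found by the distance between log2 values, each probe set centred on its own mean, over 4 arrays and 19754 named probe sets. The 5 nearest were Cenpi (distance 0.14), of the centromere, Aoc3 (0.15), an amine oxidase of vessels and fat, Idi1 (0.17), of the cholesterol pathway, Cxcl15 (0.19), a chemokine, and Bdh1 (0.21), a ketone body enzyme. Aoc3, for example, read 1369 and 2044 in the null pools, against 671.7 and 753.7 in the wild-type pools. With 4 arrays many probe sets share a profile by their few points alone. Cpa3 was below the filter and was not ranked.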

How the data were processed

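Total RNA of 4 tumor pools was measured on 4 1-colour arrays. The deposited values are linear probe set intensities, made by the authors with MAS5 per the submitters' processing notes (version and genome build not given in the sources used here). They were used as deposited, after 64 control probe sets were left out, with 45037 kept, each column mapped to 1 sample. Symbols came from the platform annotation (1 symbol for 34945 probe sets), and only probe sets with 1 symbol were named. All 8 genes matched the RefSeq table (GRCm38.p6), used for names, gene order and promoters.

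The tests used log2(intensity + 44), with a pseudocount at the 10th percentile of all values, so folds of weakly expressed genes come out too small. The 22519 probe sets whose mean log2 value was at or above the median were fitted with limma 3.58.1 (R 4.3.3) with genotype and set, an intensity trend and Benjamini-Hochberg adjustment over all of them, with a threshold of 0.05. This filter kept 1 of the 11 mast cell probe sets. Set was fitted as a block, since the design text pairs 1 null with 1 wild-type pool in each set. With 2 pairs, same-set deviations from the group means correlate equally in both, so that check was not informative. The fit has 1 residual degree of freedom, to which limma added 13.5 prior ones, and the number of arrays limits the precision. An exact permutation of 2 against 2 arrays, which leaves out the pairing by set, cannot go below a two-sided p of 0.333. The fit was also run on data simulated with its own means, set effects and spread, which does not check the trend or the block.

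The mast cell genes, the further lists and the tests were chosen with earlier results of these data known. The naming rule took all mast cell probe sets, up to 4 called genes per list by size (where none was called, the 2 brightest), and the 5 genes nearest to Cma1. Other named list genes were chosen after their values were seen. Alternatives were 2 other normalizations, pseudocounts of 16 and 200, other filters, no trend, no block, and each array left out.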

Additional observations from a re-analysis of the deposited data

Results flagged for a closer look

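For several probe sets the null pool was above the wild-type pool in one set and below it in the other. With 1 pair of pools per set this difference was not tested. The log2 ratio of null over wild type was 3.05 in set 1 and -0.46 in set 2 for Mcpt4. It was -0.45 and 1.39 for Tpsb2 (1422180_a_at), and 0.15 and -0.75 for Hdc (1451796_s_at). For Ms4a2 it was -0.11 in set 1 and 2.17 in set 2 on 1421475_at, and -0.24 and 2.50 on 1443264_at. All readings of these mast cell genes were within the unspecific level, which the ratios do not take into account. For Gzmb, granzyme B, it was -0.57 in set 1 and 0.88 in set 2, with the null reading of set 1 (561.8) just within the unspecific level. For Krt10, a keratin, it was -0.377 in set 1 and 0.058 in set 2.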

How the results depend on the processing

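Over the alternatives that can move it, the log2 ratio of null over wild type ranged from 0.77 to 1.48 for Cma1 and from 1.07 to 2.22 for Cpa3, whose wild-type readings are within the unspecific level. These ranges describe the contrast that chose the genes and support nothing. The count of probe sets that differ between null and wild type, 1658 with all terms, was 0 when limma's trend was dropped (3512 had an unadjusted p under 0.05). With no replicate block it was 0 (1261 had an unadjusted p under 0.05), and 5 to 26 with 1 array left out as well. Of the 22 further mast cell genes, 3 were called with all terms, 0 without the trend, 0 with no replicate block, and 0 to 1 with 1 array left out. Under the 7 other alternatives this count was 3, or 4 with either pseudocount, where the added gene, Stat5a, was lower in the null pools. Between sets, 5295 probe sets were called, 0 without the trend (6233 had an unadjusted p under 0.05) and 369 without the genotype term, and 0 to 982 with 1 array left out as well. The log2 difference of Cma1 between sets was -0.358 without null pool 2 and -0.015 without wild-type pool 1, and up to 1.11 without wild-type pool 2. Its limma adjusted p ranged from 0.168 to 0.994. The cause of these changes was not tested. Fits with 1 array left out assume that the lone array varies like the others. Signal over background and the 2 pools per genotype both limit these results: 9 of 11 mast cell probe sets were within the unspecific level.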

Other observations

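The unspecific level of 564.5 came from the wild-type array of set 2. The highest Y-linked reading was 309.4 and 350.8 on the null arrays of sets 1 and 2, and 414.5 on the wild-type array of set 1. Set against the highest Y-linked reading of its own array, a choice made after seeing the data, Cma1 was above it on all 4 arrays and Cpa3 on both null arrays and neither wild-type array. Tpsb2 (1451802_at) was then above it on both arrays of set 1. Mcpt4 was above it on the null array of set 1, Ms4a2 (1443264_at) on the null array of set 2 and Tpsab1 on the wild-type array of set 1. Of the 11 mast cell probe sets, 4 and 3 were above it on the null arrays of sets 1 and 2, against 3 and 1 on the wild-type arrays.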
